A study of Mus musculus with 2 samples.

Results

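Cxcl1, Cxcl2 and Cxcl5 were followed through sorted mesenchymal cells of the mouse large intestine as the 3 rows of these names among 32285 genes in each of 2 single-cell count tables. One library, labelled ff, came from C57BL/6 mice and the other, labelled GF, from Balb/c mice; the series' design text gives adult animals older than 8 weeks and names germ-free mice. The germ-free state is tied to a library only through its name, ff is not spelled out in the sources used here, and strain and library coincide, so that strain, microbial state and library cannot be told apart. Both libraries held cells sorted for gp38 (podoplanin, a membrane protein of fibroblasts) and against CD45, EpCAM and CD31, which mark leukocytes, epithelium and endothelium. How many mice were pooled in a library is not stated.

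The ELR-motif CXC chemokines bind the receptor CXCR2 and draw neutrophils into tissue. CXCL1 and CXCL2 are made by stromal cells and macrophages, and CXCL5 by epithelial and stromal cells. Their genes are classical targets of NF-kB, the transcription factor held in the cytoplasm by the inhibitor that Nfkbia encodes. NF-kB in turn induces Nfkbia and Tnfaip3, which shut the signal off, and the proteins of the Zfp36 family bind AU-rich elements of such short-lived transcripts and speed their decay.

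The chemokines are neighbours on the plus strand of chromosome 5 (GRCm38, GENCODE vM21). Cxcl5 (ENSMUSG00000029371) lies at chr5:90759360-90761624, Cxcl1 (ENSMUSG00000029380) at chr5:90891241-90893115 and Cxcl2 (ENSMUSG00000058427) at chr5:90903871-90905938. Each has 4 exons in its longest annotated transcript, and no other annotated gene overlaps them. They belong to a cluster of 7 CXC chemokine genes that spans 146579 bases and also holds Cxcl3, Ppbp, Pf4 and Cxcl15. Only 10755 bases separate the end of Cxcl1 from the start of Cxcl2. The longest stretch shared by their transcripts was 23 bases for Cxcl1 and Cxcl2 and 14 bases for Cxcl5 and either of them. Cxcl2 and Cxcl3, however, share a run of 157 bases, so the values of Cxcl3 are uncertain. Reads from that run could also affect the values of Cxcl2, to an extent that was not measured.

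The promoters of Cxcl1, Cxcl2 and Cxcl3 are shown because they share 2 short motifs in the same order before the start, and that of Nfkbia because it was the gene whose level followed Cxcl1 most closely from cell to cell. The promoter set used held no entry for Cxcl5, so its promoter was not searched for either motif. Each line gives the 110 bases before the RefSeq start on the gene's own strand (GRCm38.p6). Capitals mark the decamer GGGAATTTCC or its reverse complement, the longest run common to the 4 windows on either strand and a form of the kB site to which NF-kB binds, and the octamer ATAAAAGG, a TATA-like element and the longest further run common to the 3 chemokine windows. The windows are chr5:90891135-90891244 for Cxcl1, chr5:90903789-90903898 for Cxcl2, chr5:90785991-90786100 for Cxcl3 (all on the plus strand) and chr12:55492648-55492757 for Nfkbia (minus strand).
Cxcl1: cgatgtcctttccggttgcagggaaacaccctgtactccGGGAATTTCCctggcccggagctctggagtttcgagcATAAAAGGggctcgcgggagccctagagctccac
Cxcl2: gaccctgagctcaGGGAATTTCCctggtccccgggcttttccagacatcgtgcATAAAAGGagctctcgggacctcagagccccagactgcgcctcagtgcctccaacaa
Cxcl3: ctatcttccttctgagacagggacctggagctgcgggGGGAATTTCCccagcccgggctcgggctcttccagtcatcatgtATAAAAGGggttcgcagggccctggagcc
Nfkbia: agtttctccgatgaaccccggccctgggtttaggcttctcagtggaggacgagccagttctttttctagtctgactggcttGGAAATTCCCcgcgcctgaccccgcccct

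The decamer began at position -71 from the start in Cxcl1, -97 in Cxcl2 and -73 in Cxcl3, and at -29 on the opposite strand in Nfkbia. Searched on both strands of the RefSeq windows of 250 bases before to 50 after the start, it was present in 29 of 32851 promoters (0.0883%). The looser form GGGNNNTTCC, which includes the decamer, was present in 5.56%. The octamer ATAAAAGG stood at -34 in Cxcl1, -57 in Cxcl2 and -29 in Cxcl3, and was present in 1.76% of all promoters. A match describes the letters only and was not tested as a binding site.

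The ff library gave 13704 barcodes and 119866589 UMIs (unique molecular identifiers, 1 per captured transcript), the GF library 16388 barcodes and 105331294 UMIs, and 55 barcodes occurred in both. After the cell filter, doublet removal and a gate on collagen, Dcn and platelet-derived growth factor receptor UMIs, 11899 ff cells (median 8900 UMIs) and 12847 GF cells (median 6669 UMIs) formed the mesenchymal pool, 98.0% and 90.1% of the retained cells. Pdpn, which encodes gp38 and was not part of the gate, was seen in 82.0% of the ff cells and 77.7% of the GF cells. The median mitochondrial share of UMIs was 3.17% in ff and 4.08% in GF. Ptprc (CD45), Epcam and Pecam1 (CD31), which the gate limits, each had one in under 1% of the cells of either library. Levels are counts per 1000000 UMIs (CPM) summed over cells. All intervals are exact 95% intervals and cover counting error only. There was 1 library per group, so the differences between libraries have no replicate check and no test was made.

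Cxcl1 was by far the most abundant of the 3 transcripts. Its level was 1384 in ff (1377 to 1391) and 1312 CPM in GF (1304 to 1319), which placed it 125th and 123rd among all genes in the 2 pools. Cxcl2 stood at 153 in ff (151 to 155) and 57.2 CPM in GF (55.6 to 58.8). Cxcl5 was the scarcest, with 8.80 in ff (8.24 to 9.37) and 16.1 CPM in GF (15.3 to 16.98). The order Cxcl1, Cxcl2, Cxcl5 was the same in both libraries, with neighbours separated well beyond their intervals. All 3 genes are short and of like length in the annotation (1875, 2068 and 2265 bases with introns), and the 3' chemistry counts transcript ends, so these levels were not divided by length.

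The 3 chemokines differed between the libraries in different ways. Cxcl2 was lower in GF, at -1.40 on the log2 scale of GF over ff (counting interval -1.47 to -1.37), the 113th lowest ratio of 14866 genes measured. Cxcl5 was higher in GF by 0.81 on the log2 scale (interval without pseudocount 0.75 to 0.99), although it rested on 946 and 1440 UMIs. The Cxcl1 ratio was -0.08, and it turned to 0.02 with a stricter cell filter, so no direction is read from it. Of all genes measured, 10.1% lay at least 1.5-fold apart between the libraries, 5.28% lower and 4.85% higher in GF, and 2 of the 3 chemokines were among them, 1 in each direction.

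The libraries also differed in how many cells carried Cxcl2. At least 1 UMI of Cxcl1 was found in 75.9% of ff cells (75.1 to 76.7) and 70.3% of GF cells (69.5 to 71.1). For Cxcl2 the shares were 13.8% (13.2 to 14.4) and 7.15% (6.71 to 7.61), and for Cxcl5 they were 357 of 11899 cells and 475 of 12847 (3.70%, 3.38 to 4.04). With every cell thinned to 2000 UMIs, which left out 221 ff and 388 GF cells of lower depth, the shares were 59.6% and 57.4% for Cxcl1, 8.29% and 4.44% for Cxcl2, and 1.14% and 1.74% for Cxcl5. Lymphocyte-like cells in the same libraries, which should lack these transcripts, were taken as a measure of the background from free RNA. In GF, 36 of 931 such cells (3.87%) held a Cxcl1 UMI at the same thinned depth, 1 (0.107%) a Cxcl2 UMI and 0 a Cxcl5 UMI, which allows a share of up to 0.322%. The ff library had only 68 such cells, of which 6 (8.82%) held Cxcl1, 1 (1.47%) Cxcl2 and 0 Cxcl5, which allows up to 4.41%, so the ff share of Cxcl5 cannot be set apart from free RNA by this comparison. Median depths before thinning were 3801 and 3839 UMIs for the ff B- and T-like cells and 2401 and 2690 for those of GF. Before thinning, 94 Cxcl1 UMIs lay in 12 of 62 ff B-like cells and 42 Cxcl2 UMIs in 4. Whether these UMIs were free RNA was not tested.

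Copies of Cxcl2 varied widely among the cells that carried it. Among cells with any Cxcl2 UMI the median was 4 in ff and 3 in GF, below the 10 and 7 of cells with a Cxcl1 UMI, but single cells reached 221 and 75. The cells in the top 5% for each gene held 84.2% of the Cxcl2 UMIs in ff and 94.6% in GF, and 28.3% and 33.1% of the Cxcl1 UMIs; for Cxcl2 this share follows largely from how few cells carried it. At least 10 UMIs of Cxcl2 were present in 4.35% of ff cells and 1.19% of GF cells, where 13.8% and 7.15% held at least 1. Single cells also reached 200 and 234 UMIs of Cxcl1, and 29 and 62 of Cxcl5.

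**Figure D1:**
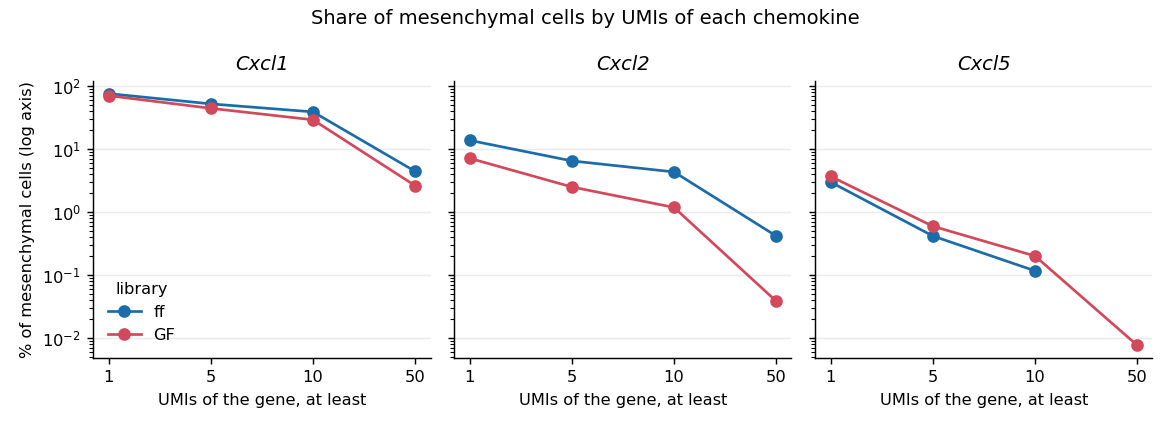
Share of mesenchymal cells (vertical, % on a log axis) with at least 1, 5, 10 or 50 UMIs of each chemokine (horizontal), for ff (blue) and GF (red). The Cxcl1 lines stay above 2% at 50 UMIs, the ff line of Cxcl2 lies above the GF line at every step, and no ff cell reached 50 UMIs of Cxcl5.

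The spread over the mesenchymal cells was followed in 16 clusters that held at least 50 cells of each library, each called by the gene that leads it. Clusters were named only where fixed marker lists allowed it: 2 were Foxl1-high-like (Wif1- and Ptprr-led; cells of this kind lie under the epithelium), 3 lamina propria fibroblast-like (Spock3-, Col6a5- and Cd36-led), 3 adventitial or submucosal fibroblast-like (Gap43-, Angptl1- and Smpd3-led) and 1 smooth muscle-like (Actg2-led). The other 7 stayed unnamed. The chemokines and the NF-kB and early genes were left out of the genes used for clustering.

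Cxcl1 was expressed in every one of these clusters, over about an order of magnitude. In ff it was highest in the Ntrk3-led (2398 CPM), Myoc-led (2300 CPM) and Angptl1-led (2087 CPM) clusters. In GF the Myoc-led (2529 CPM) and Ntrk3-led (2264 CPM) clusters were again at the top, followed by the Cxcl9-led cluster, whose leading genes are induced by interferon (2073 CPM). At the other end, the smooth muscle-like cluster had 286 CPM (ff) and 319 CPM (GF), and the Cx3cr1-led cluster 394 and 222 CPM. B-like cells, taken as the background, had 172 CPM of Cxcl1 in ff (139 to 210) and 31.0 CPM in GF, below every cluster. The part of free RNA in the lowest ff levels was not measured. Neighbours in this order overlapped in their intervals in 4 of 15 pairs in ff and 3 of 15 in GF. For Cxcl2 11 and 12 of 15 neighbouring pairs overlapped, and for Cxcl5 13 in each library, so only the ends of those orders are read.

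Foxl1-high-like cells, 17.7% of the ff and 7.98% of the GF pool, had less Cxcl1 than the other mesenchymal cells in both libraries. The level was 892 against 1492 CPM in ff and 469 against 1392 CPM in GF, log2 ratios of -0.74 (-0.76 to -0.72) and -1.57 (-1.62 to -1.52). In smooth muscle-like cells the ratios were -2.29 in ff and -2.06 in GF. A ratio at least 1.5-fold lower in both libraries was found for 11.2% of 13263 genes in the Foxl1-high-like and 13.7% in the smooth muscle-like cells, so a low level there was shared with many genes. Cxcl2 in the Foxl1-high-like cells was at -0.55 in ff and -1.25 in GF, short of 1.5-fold in ff. The median gene lay at 0.09 in ff and 0.15 in GF in this comparison.

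Adventitial or submucosal fibroblast-like cells went opposite ways in the 2 libraries for Cxcl1. Their level was 1862 CPM against 1283 in other ff cells and 1083 against 1374 in other GF cells, log2 ratios of 0.54 and -0.34. The Angptl1-led cluster was the largest of this class in ff (1073 of 2354 cells) and the Gap43-led cluster in GF (1037 of 2574 cells). Each of the 3 clusters was nevertheless lower in GF: 1262 against 1747 CPM in the Gap43-led, 1476 against 2087 CPM in the Angptl1-led and 712 against 1596 CPM in the Smpd3-led cluster. Lamina propria fibroblast-like cells differed little from the rest for Cxcl1 (-0.21 and -0.17). Cxcl5 in the adventitial or submucosal-like class was low in both libraries, 2.08 in ff and 8.57 CPM in GF against 10.2 and 18.2 CPM in the other cells. Its log2 ratios were -1.86 and -1.004, where 13.3% of genes were at least 1.5-fold lower in both libraries.

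**Figure D2:**
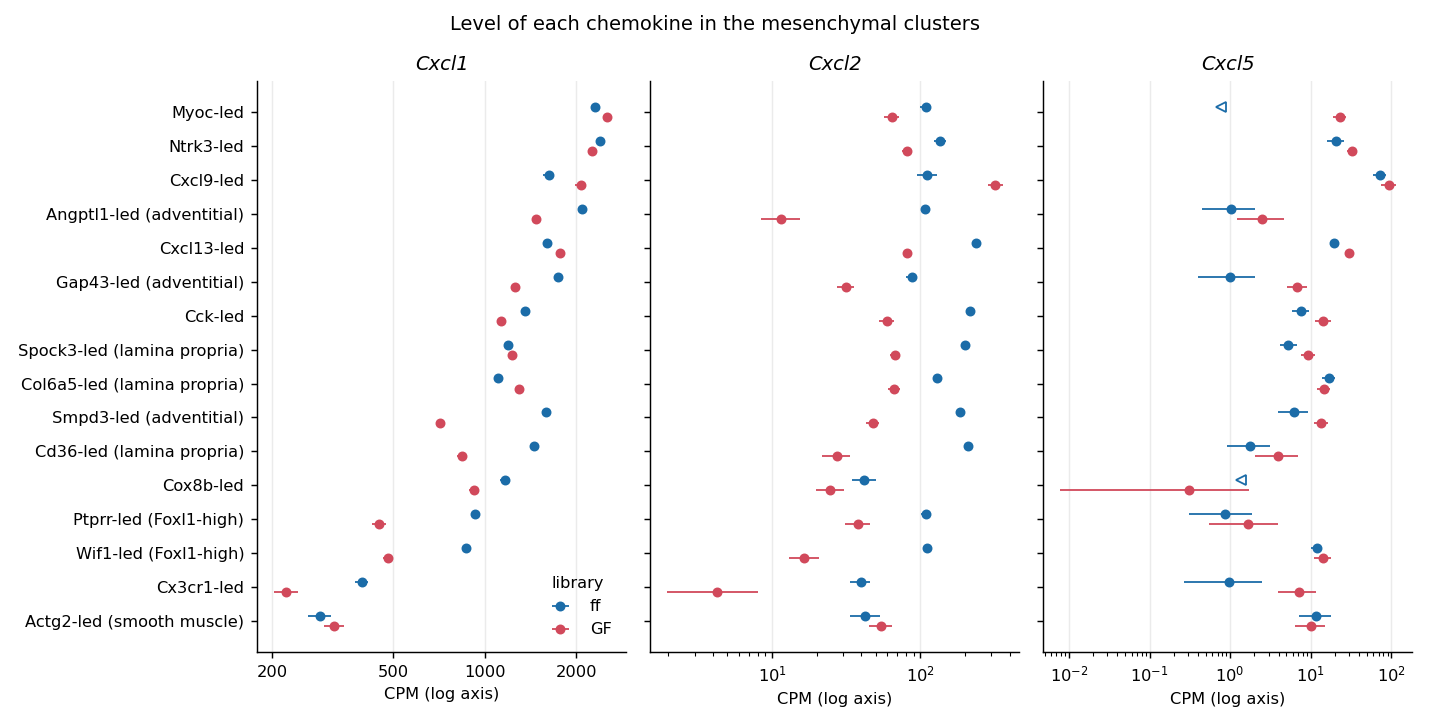
Level of Cxcl1, Cxcl2 and Cxcl5 (CPM, log axes with a range of their own) in 16 mesenchymal clusters, for ff (blue) and GF (red), with 95% counting intervals; open triangles mark the upper limit where ff had no UMI. Cxcl2 is higher in ff in 14 of 16 clusters, and the Cxcl9-led cluster has the most Cxcl5 in both libraries.

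The lower Cxcl2 of GF recurred inside most clusters. In 14 of 16 clusters the counting interval of the GF over ff ratio lay below 0, and the median log2 ratio was -1.52. The Angptl1-led cluster fell furthest apart, with 108 in ff and 11.5 CPM in GF (log2 ratio -3.12). The Cx3cr1-led (39.5 and 4.26 CPM), Cd36-led (211 and 27.2 CPM) and Wif1-led (111 and 16.5 CPM) clusters had ratios of -2.94, -2.91 and -2.68. B-like cells, taken as the background, had 76.8 CPM of Cxcl2 in ff (55.4 to 104, from 42 UMIs in 4 of 62 cells) and 1.07 CPM in GF. The ff levels of 3 clusters (Actg2-, Cox8b- and Cx3cr1-led) lay below the ff value of the B-like cells. The ratios of these 3, of which the Cox8b- and Cx3cr1-led are among the 14, are therefore not read as differences in expression. The Gap43-led cluster, at 87.4 CPM in ff, lay inside the interval of the B-like value, so its ratio is uncertain too. Whether the 42 UMIs in 4 ff B-like cells were free RNA was not tested. The smooth muscle-like (Actg2-led) cells had 42.7 and 54.0 CPM, a ratio whose interval holds 0. The Cxcl9-led cluster went the other way, 111 in ff and 321 CPM in GF. There 323 GF UMIs came from 24 of 136 cells and 75 of them from 1 cell, without which the level was 249 CPM. The share of its cells with a Cxcl2 UMI was 14.3% in ff (9.17 to 20.8) and 17.6% in GF (11.6 to 25.1), 2 overlapping intervals.

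Macrophage-like cells, the other known source, were measured beside this result. The retained cells included 55 ff and 66 GF macrophage-, monocyte- or dendritic cell-like cells with 1464 and 1266 CPM of Cxcl2, above every mesenchymal cluster. They contributed 5.34% of the library's Cxcl2 UMIs in ff and 9.22% in GF, and the mesenchymal pool 94.2% and 88.8%. The summed level of the 9 macrophage, monocyte and dendritic cell markers in the pool was 19.97 CPM for ff and 18.99 CPM for GF. All 9 were detected, with Cd68 the highest (8.24 and 8.33 CPM). Without the 14.03% of ff and 10.3% of GF mesenchymal cells that held a UMI of any of these markers, Cxcl2 was at 151 in ff and 57.2 CPM in GF (-1.38 on the log2 scale).

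The highest Cxcl5 level was in the Cxcl9-led cluster, with 71.8 in ff (interval 58.7 to 87.0) and 92.5 CPM in GF (74.7 to 113), and 16.2% and 19.9% of those cells held a UMI. The Ntrk3-led (20.7 and 32.4 CPM) and Cxcl13-led (19.3 and 30.3 CPM) clusters followed in both libraries, with intervals that overlap each other. The Ptprr-led Foxl1-high-like cluster had 0.852 and 1.68 CPM, whereas the Wif1-led one had 11.9 and 14.2 CPM. The Myoc-led cluster had 0 UMIs in ff and 117 in GF (23.0 CPM), at least 37.2-fold higher when ff is set at 3 UMIs over the cluster. That GF value came from 11 of 619 cells, and 62 of the UMIs from a single cell, without which it was 10.9 CPM. In the 14 clusters with ff UMIs the log2 ratio of GF over ff ran from -0.20 to 2.04 with a median of 0.67, and its counting interval lay above 0 in 7 and held 0 in the other 7. Across the 16 clusters, the levels of Cxcl2 and Cxcl5 had a correlation of 0.06 in ff and 0.96 in GF, where the Cxcl9-led cluster was highest for both; without that cluster the values were 0.32 and 0.76. Cxcl1 and Cxcl5 gave 0.12 in ff and 0.57 in GF.

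The chemokines were found in the same cells more often than in cells that lacked the partner. At 2000 UMIs per cell, 10.996% of ff cells with a Cxcl1 UMI also held Cxcl2 (10.3 to 11.8), against 4.30% of those without (3.74 to 4.92). In GF the shares were 6.67% (6.10 to 7.27) and 1.43% (1.13 to 1.79). Cells with a Cxcl2 UMI held Cxcl1 in 79.0% of cases in ff and 86.3% in GF, against 57.8% and 56.1% of the cells without. Cxcl5 was present in 2.17% and 5.97% of the Cxcl2 cells and in 1.05% and 1.55% of the others. All 3 transcripts were seen together in 18 ff and 30 GF cells. The thinned cells had differed in depth: cells with a Cxcl1 UMI had a median of 9249 UMIs in ff and 7042 in GF before thinning, and those without 8569 and 6407. The shares also pool the clusters, so differences between clusters are part of them.

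Across cells the 3 levels were weakly correlated. With each gene centred on its cluster mean, the Pearson correlation of Cxcl1 with Cxcl2 was 0.18 over 11899 ff cells and 0.20 over 12847 GF cells. Cxcl1 with Cxcl5 gave 0.06 and 0.12, and Cxcl2 with Cxcl5 0.05 and 0.10. In sparse counts such values are descriptions and carry no test. The cells of a library share its depth and its free RNA, and the correlation of Cxcl1 with the log of a cell's total UMIs was 0.12 in ff and 0.15 in GF.

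The genes whose level followed Cxcl1 most closely within clusters were led by Nfkbia. Its correlation with Cxcl1 was 0.35 in ff and 0.41 in GF. It was followed by Junb (0.27 and 0.26), a subunit of the AP-1 transcription factor, and by Zfp36 (0.26 and 0.33), which encodes the mRNA decay factor tristetraprolin. Next came Nfkbiz (0.25 and 0.27), an NF-kB-induced nuclear cofactor, and the early transcription factor Egr1 (0.25 and 0.29). Gadd45b (0.24 and 0.34), Ier3 (0.24 and 0.30), Pnrc1 (0.23 and 0.26), Ier2 (0.21 and 0.27), Gem (0.21 and 0.27) and Irf1 (0.21 and 0.28) completed the genes at 0.2 or more in both libraries. These were 11 of 13262 genes, or 0.0829%, and the median gene was at 0.00 in each library. The number depends on the clusters used for centring and on depth: it was 36 without centring, 24 with coarser clusters and 1, Nfkbia, after thinning to 2000 UMIs. All 11 were among the 36 and the 24.

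By list, 2 of 11 measured NF-kB inhibitors and feedback genes reached 0.2 with Cxcl1 in both libraries (Nfkbia and Nfkbiz), 2 of 21 other NF-kB targets (Gadd45b and Irf1), 4 of 46 immediate early genes (Junb, Egr1, Ier3 and Ier2) and 1 of 10 mRNA decay factors (Zfp36). The share over all genes was 0.0829%. The median correlation was 0.13 in ff and 0.16 in GF for the NF-kB targets and 0.10 and 0.09 for the immediate early genes. It was 0.04 and 0.07 for the inhibitors, whose members ranged widely. Tnfaip3, which encodes the A20 enzyme, stood at 0.18 and 0.20. Icam1, the adhesion molecule for neutrophils (0.19 and 0.29), Il6 (0.17 and 0.26), the monocyte chemokine Ccl2 (0.17 and 0.25) and the prostaglandin synthase Ptgs2 (0.17 and 0.18) lay just under the limit in ff. The immediate early genes Fos (0.198 and 0.276) and Btg2 (0.19 and 0.21) did so as well. Cyld (-0.01 in ff) and Otud7b (-0.01 in GF), deubiquitinases of the pathway, were near 0 in both libraries.

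None of the 5 NF-kB subunits reached 0.2 with Cxcl1. Nfkb1 (0.11 and 0.12) and Rel (0.09 and 0.12), whose transcripts are themselves induced by NF-kB, had the highest values, and Rela (0.05 and 0.03), the constitutive subunit, the lowest. Among 24 measured receptors and adaptors that lie upstream, 0 reached 0.2, and the adaptor Myd88 was highest (0.10 and 0.12). Over all genes only 0.0829% reached 0.2, so a count of 0 in lists of this size does not set them apart. Levels also differed widely between these genes, such as 5.74 CPM for Ticam1 and 195 CPM for Nfkb1 in ff, and low counts limit a correlation. Heat shock genes, measured as a second group of rapidly induced transcripts, had a median of 0.02 in ff and 0.06 in GF, 0 of 12 at 0.2 in both. Among them Hspa8 (0.15 and 0.22) was highest in both libraries, while the lowest was Hspa1b in ff (-0.03, against 0.04 in GF) and Hspb1 in GF (0.0036).

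**Figure D3:**
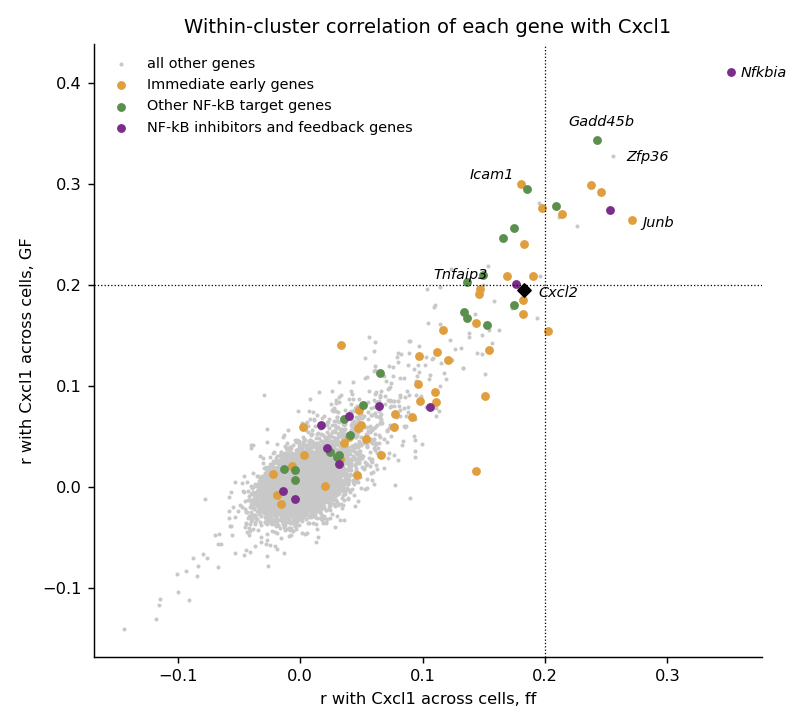
Pearson correlation with Cxcl1 across mesenchymal cells, centred on the cluster mean, in ff (horizontal) and GF (vertical); every point is 1 of 13262 genes, coloured by list, and dotted lines mark 0.2. Nfkbia lies farthest out at 0.35 and 0.41, and Cxcl2 (black diamond) at 0.18 and 0.20.

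The correlation with Nfkbia held inside every cluster. Cxcl1 and Nfkbia reached 0.2 or more in 16 of 16 clusters in each library, with medians of 0.39 and 0.41 and a range of 0.21 to 0.51 in ff and 0.28 to 0.54 in GF. The correlation with Fos, the prototype immediate early gene, had a wider range. Its median was 0.14 in ff, with 6 of 16 clusters at 0.2, and 0.29 in GF, with 14 of 16. It was 0.45 in the Col6a5-led cluster in both libraries, but 0.01 in the Cxcl13-led cluster of ff and 0.02 in the Myoc-led cluster of GF. Zfp36 had medians of 0.26 and 0.36 and reached 0.2 in 12 clusters of ff and 13 of GF. Cxcl1 and Cxcl2 were positively correlated in every cluster, from 0.10 to 0.29 in ff and from 0.13 to 0.39 in GF.

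**Figure D4:**
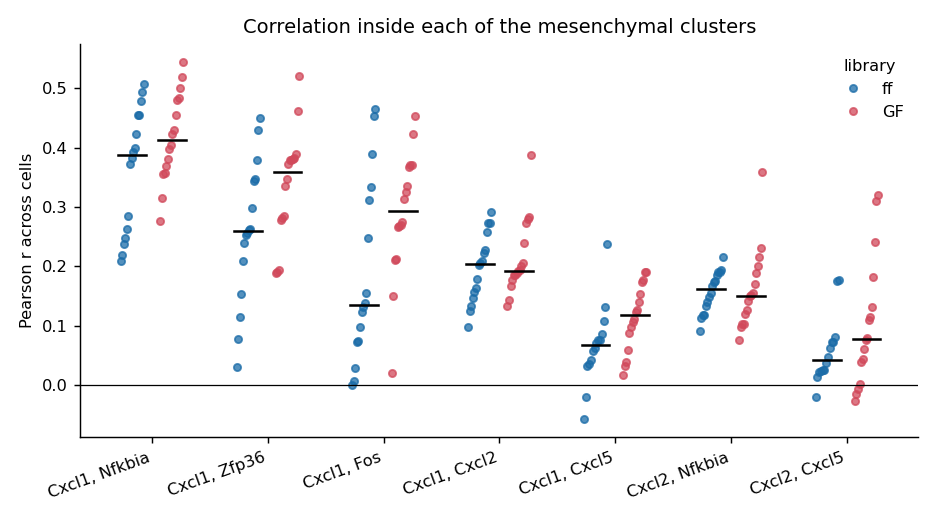
Pearson correlation across the cells of single clusters (vertical) for 7 pairs of genes, ff in blue and GF in red; each point is 1 cluster and black bars are medians over the clusters that held UMIs of both genes. Cxcl1 with Nfkbia is at 0.21 or above throughout, while Cxcl1 with Fos runs from 0.00 to 0.47 in ff.

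No gene reached 0.2 with Cxcl2 in both libraries, 0% of 13262. Its nearest gene was Cxcl1 (0.18 and 0.20), then Nfkbia (0.14 and 0.15), Tnfaip3 (0.11 and 0.12), Ccl2 (0.10 and 0.15), Nfkb1 (0.09 and 0.09), Pnrc1, Cxcl10, Irf1, Ccl7, Ier3, Nfkbiz and Kdm6b. Of these, Nfkbia, Pnrc1, Irf1, Ier3 and Nfkbiz were also among the genes at 0.2 with Cxcl1, whereas Tnfaip3, Ccl2, Nfkb1, Cxcl10, Ccl7 and Kdm6b were not. Fos was at 0.00 in each library and Junb at 0.07 and 0.03. Cxcl5 was nearest to Ccl2 (0.07 and 0.13), Serpina3g, Cxcl1, Cxcl3, Cxcl10 and Cxcl2, then Ifitm1, Birc3, C3, Ecscr, Cxcl9 and Ugcg, and again 0% of genes reached 0.2.

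Levels in cells with and without a chemokine UMI were set beside these correlations. In cells with a Cxcl2 UMI (968 in ff, 553 in GF, all at 2000 UMIs), Tnfaip3 was at 185 against 102 CPM in ff and 115 against 49.8 CPM in GF. Ccl2 was at 782 against 420 CPM in ff and 1449 against 490 CPM in GF, and Nfkbia at 1955 against 1410 and 2028 against 1138 CPM. Fos differed little, 5610 against 5934 CPM in ff and 6015 against 5503 CPM in GF. With cells split by Cxcl1 instead, Fos was higher in the cells with a UMI, 6314 against 5308 CPM in ff and 6418 against 4323 CPM in GF. Zfp36 was at 1810 against 1228 and 1957 against 1148 CPM in that split, and Nfkbia at 1713 against 1074 and 1496 against 748 CPM. These splits pool the clusters, so differences between clusters are part of them.

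**Figure D5:**
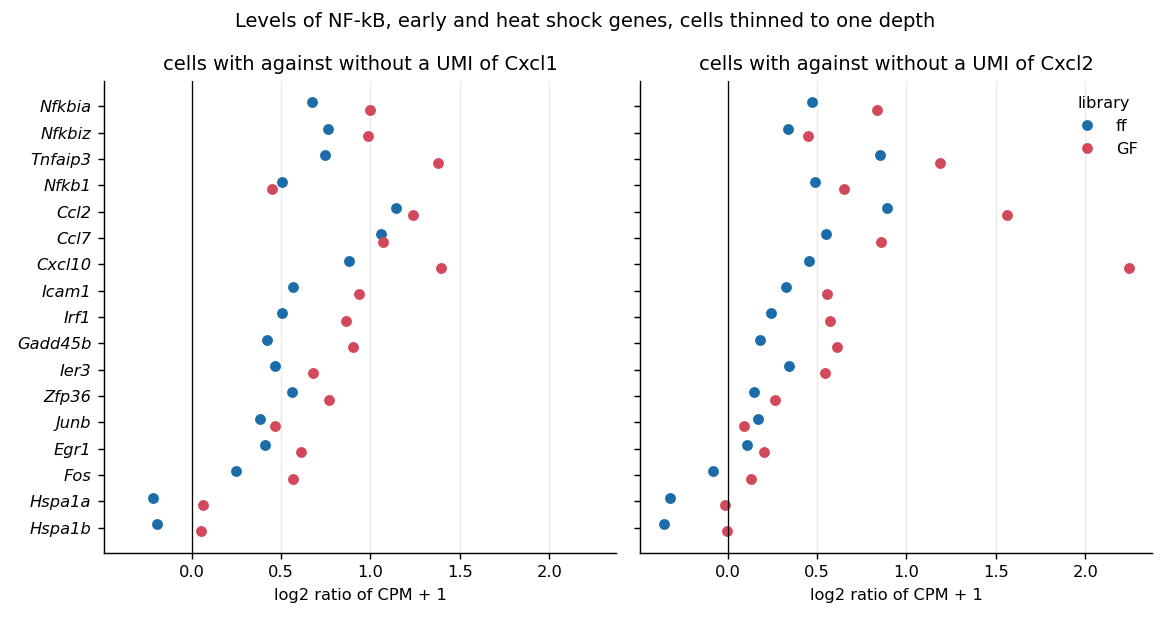
Log2 ratio of the level (CPM + 1) in mesenchymal cells with against without a UMI of Cxcl1 (left) or Cxcl2 (right) after thinning to 2000 UMIs, for 17 genes in ff (blue) and GF (red); the vertical line marks no difference. Tnfaip3 and Ccl2 lie to the right in both panels, while Fos is at 0.25 and 0.57 for Cxcl1 and at -0.08 and 0.13 for Cxcl2.

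The decamer of the promoters was set against these correlations. Of the 29 genes with it, 23 were in the count tables, and 13 besides Cxcl1 had at least 50 UMIs in each library. Their median correlation with Cxcl1 was 0.01 in each library, and only Nfkbia and Cxcl2 were above 0.05 in both. Map3k7, a kinase of the NF-kB pathway, held the decamer and stood at 0.01 and 0.01. The decamer was found from windows that included these 2 genes, with Nfkbia picked for its correlation, so their place is fixed in part by that choice. Of the 11 genes at 0.2 with Cxcl1, 7 were in the promoter table and 1, Nfkbia, held the decamer.

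Between the libraries, the inhibitor genes nearest to the chemokines were lower in GF by smaller ratios than Cxcl2. Nfkbia was at 1494 in ff and 1209 CPM in GF (log2 ratio -0.30) and Nfkbiz at 318 and 225 CPM (-0.50). Tnfaip3 was at 112 in ff and 52.0 CPM in GF (-1.10). Ccl2 went the other way, with 450 in ff and 647 CPM in GF (0.52). Over all measured genes 5.28% were at least 1.5-fold lower in GF and 4.85% higher, against which the following counts are read. Of 11 measured inhibitors, 2 were lower (Tnfaip3 and Nfkbid) and 1 higher (Nfkbie). Nfkbid had a larger ratio than Cxcl2, -2.02, on 761 UMIs in ff and 89 in GF. Of 25 measured targets, 1 was lower (Cxcl10) and 3 were higher (Traf1, Ptx3 and Ch25h), and of 46 immediate early genes 3 were lower (Dusp5, Sgk1 and Arc) and 4 higher (Nr4a3, Maff, Ccn1 and Per1). The medians of the 3 lists were 0.01, 0.14 and 0.02 beside 0.02 for all genes; the genes given in parentheses here, apart from Tnfaip3, are named after their values were seen. Of the 12 heat shock genes 4 were at least 1.5-fold lower in GF (Hspa1a, Hspa1b, Hspb1 and Hsph1). Hspa1b was at 1494 CPM against 758 in GF, and the list's median was -0.39; the part of such a difference in the chemokine values was not tested.

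Transcripts of the signalling receptors were at or near 0. Cxcr2 had 20 UMIs in ff and 12 in GF over the whole pool, and Cxcr1 had 0 in both, which allows up to 0.0279 and 0.0336 CPM. Ackr1, a receptor that scavenges these chemokines and is best known from venular endothelium, stood at 24.8 in ff and 30.2 CPM in GF, above Cxcl5, and 16.02% and 14.5% of the cells held a UMI of it. Of the other chemokine genes of the locus, Cxcl3 had 55 UMIs in ff and 125 in GF, Pf4 157 and 139, Ppbp 3 and 2, and Cxcl15 0 and 1. Neutrophil markers themselves were near 0 in the pool: their 7 genes summed to 0.781 in ff and 1.07 CPM in GF, with S100a9 at 0 UMIs in both and Ly6g at 0 and 1. The sort against CD45 and the gate were set to exclude leukocytes. These values, and those of Cxcr1 and Cxcr2, therefore do not describe neutrophils in the tissue.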

How the data were processed

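Per the labels, each group of sorted cells gave 1 library with the 10x Genomics v3.1 kit for 3' ends. Per the submitters' processing notes, Cell Ranger 6.0.0 and the mm10 genome were used. For the counting annotation, the release is not named there. The authors deposited raw UMI counts per Ensembl gene and barcode, with no normalization; symbols were matched for 32158 of 32285 genes. No barcode had under 500 UMIs.

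The cell filter asked for 500 genes or more, 1000 UMIs or more and no more than 10% mitochondrial UMIs (12702 ff and 15066 GF cells passed). Scrublet (scanpy 1.11.5, automatic threshold) then removed 566 ff (4.46%) and 803 GF (5.33%) doublets. The mesenchymal gate asked for at least 10 UMIs of Col1a1, Col1a2, Col3a1, Col6a1, Col6a2, Dcn, Pdgfra and Pdgfrb, with UMIs of 13 leukocyte, epithelial, endothelial and glial genes at most 5% of them. Cells of both libraries were clustered together (2000 variable genes, 30 components, 15 exact nearest neighbours weighted by shared neighbours, leidenalg 0.10.2 at resolution 1). A name needed 3 markers at 2-fold, with 1 among the top 20 genes.

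CPM are UMIs per 1000000, log2 ratios use a pseudocount of 1 CPM, which understates ratios of low genes, and their intervals omit it. Intervals are Poisson for CPM, Clopper-Pearson for shares and conditional binomial for ratios; UMIs of 1 cell are not independent, so they are too narrow for Cxcl2 and Cxcl5. Correlations use the log of 1 plus counts per 10000. Genes counted as measured from 50 UMIs over both libraries (ratios) or in each (correlations, classes). Scripts were tested on simulated counts. Genes were named by rank: from each list up to 6 with the highest and 2 with the lowest correlation with Cxcl1, all of lists of at most 5 genes, and the 12 genes most like each chemokine; the text gives part of these. The members and lists were chosen with earlier results of these data known, and the neighbour graph was set after values had been seen.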

Additional observations from a re-analysis of the deposited data

How the results depend on the processing

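With 1 library per group no difference between libraries has a replicate check, and depth limits Cxcl5 most. No paired analysis was possible because each group is a single library. Every alternative kept the direction of the Cxcl2 and Cxcl5 ratios between libraries and of the Foxl1-high-like ratios; the Cxcl1 ratio between libraries did not. No cause of these shifts was tested. With the stricter cell filter (1000 genes, 2000 UMIs, 5% mitochondrial) the GF over ff log2 ratio was 0.022 for Cxcl1 and -1.36 for Cxcl2, and the Foxl1-high-like ratio of Cxcl1 in GF -1.46. With GF clusters weighted by the ff cell shares the library ratios were -0.23 for Cxcl1, -1.53 for Cxcl2 and 0.63 for Cxcl5. With doublets kept, the Cxcl2 library ratio was -1.37, and the Foxl1-high-like ratios -0.68 (ff) and -1.26 (GF) for Cxcl1 and -0.94 (GF) for Cxcl2. Median-of-ratios scaling, which shifts GF over ff by 0.03, gave -0.11 for Cxcl1 between libraries, and -0.89 (ff) and -1.79 (GF) for Cxcl1 and -0.70 (ff) for Cxcl2 in Foxl1-high-like cells. Thinning to 2000 UMIs gave library ratios of -0.14 for Cxcl1 and -1.32 for Cxcl2, a Foxl1-high-like ratio of -0.76 for Cxcl1 in ff, and correlations of Cxcl1 of 0.16 and 0.17 with Cxcl2 and 0.039 and 0.096 with Cxcl5 (ff and GF). Without centring, Cxcl1 and Cxcl5 were at 0.135 in GF. Without cells holding a macrophage marker UMI, chosen after seeing the data, the Cxcl1 library ratio was -0.10. List members at 0.2 with Cxcl1 in both libraries fell after thinning to 1 inhibitor, 0 other targets and 0 immediate early genes. Without centring there were 6 targets and 11 immediate early genes, with clusters at resolution 0.5 (chosen after seeing the data) 4 and 11, and by Spearman correlation 2 immediate early genes.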

Other observations

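Beyond the mesenchymal cells, the macrophage-, monocyte- or dendritic cell-like cells inverted the ratio of the chemokines. They held 1464 CPM of Cxcl2 and 374 CPM of Cxcl1 in ff, and 1266 and 466 CPM in GF, and at 2000 UMIs per cell 55.8% and 33.3% of them carried Cxcl2. Their Cxcl3 level was 44.0 in ff and 31.1 CPM in GF, from 28 and 13 UMIs, and Cxcl5 had 2 and 0 UMIs. Lymphatic endothelium-like cells (40 in ff and 49 in GF) had 383 and 118 CPM of Cxcl1 and 71.2 and 176 CPM of Cxcl2, on 16 and 46 UMIs of Cxcl2.

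Across the 16 mesenchymal clusters, the level of Cxcl1 lay closer to that of Il6 than to that of the other 2 chemokines. The correlation of cluster levels was 0.86 in ff and 0.78 in GF with Il6, 0.82 and 0.62 with Zfp36, and 0.35 and 0.51 with Cxcl2; clusters share libraries and these are descriptions. Il11, a stromal cytokine, was higher in GF (10.5 and 36.2 CPM), as was Ptx3 (34.3 and 116 CPM), the long pentraxin of the innate response.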
